A study of Mus musculus with 13 samples.

Results

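ACLP-NT was compared with saline in the hippocampus of 5xFAD mice, by RNA sequencing of bulk tissue. The groups were taken from the treatment label: ACLP-NT has 5 libraries (17, 27, 49, 53 and 55) and saline has 4 (18, 19, 32 and 38), so that 9 of the 13 libraries of the study enter the comparison. The other 4 libraries (24, 50, 56 and 58) come from mice given Aducanumab, an antibody to aggregated amyloid beta, and they share the saline controls. All 3 groups are 5xFAD mice, which carry human amyloid precursor protein and presenilin transgenes with familial Alzheimer's disease mutations, expressed in neurons. The background is the saline-treated 5xFAD group, and the study's libraries hold no wild-type animals. ACLP-NT is known here by its code name, and the series title describes a nanomedicine meant to restore the lysosomes of microglia. The labels used here state neither dose nor treatment time, age or sex.

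Microglia are the resident macrophages of the brain. Around amyloid plaques they lower homeostatic genes such as P2ry12 and Tmem119 and raise a disease-associated set that depends in part on the receptor TREM2 and its adaptor TYROBP and that is rich in lysosomal and antigen-presenting genes. The lysosome degrades what microglia take up. Its hydrolases work at the acid pH that the vacuolar ATPase maintains, and many of its genes carry the CLEAR motif bound by the transcription factor TFEB. Glucocorticoids, which the hippocampus reads through the receptors encoded by Nr3c1 and Nr3c2, induce a well-known set of target genes in neurons and glia.

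Libraries held 53642019 to 69734713 counts, and 22065 of 36287 genes had enough counts to be tested. The labelled tissue carried its markers: all 8 markers of dentate gyrus granule cells and all 12 of the CA fields were tested, with summed levels of 475 to 632 and 748 to 933 CPM (counts scaled to the library total) in the 9 libraries. The dissections were uneven. Markers of the choroid plexus, the epithelium that makes cerebrospinal fluid, summed to 271 (saline 18), 1040 (saline 19), 334 (saline 32) and 8113 CPM (saline 38), and to 3801 (ACLP-NT 17), 2969 (ACLP-NT 27), 6232 (ACLP-NT 49), 8057 (ACLP-NT 53) and 309 CPM (ACLP-NT 55). Markers of neocortex summed to 180 to 316 CPM in saline and 164 to 233 CPM in ACLP-NT. The choroid plexus and neocortex lists were therefore also entered in the model as a score per library. Myelin markers summed to 5013 to 6114 CPM in saline, 4051 and 3993 CPM in ACLP-NT 17 and 27, and 6348 to 6772 CPM in ACLP-NT 49, 53 and 55. Markers of thalamus and midbrain summed to 78.7 to 91.3 CPM in saline and 73.5 to 165 CPM in ACLP-NT, with ACLP-NT 49 the highest. The part of these markers in the values below was not tested.

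No gene passed the edgeR quasi-likelihood test at an adjusted p of 0.05 in ACLP-NT against saline (0% of those tested). The smallest adjusted p was 0.722. At an unadjusted p below 0.05, 542 genes were higher in ACLP-NT (2.46% of those tested) and 756 were lower (3.43%), together 1298, where 5% of the genes tested is 1103. Without saline 38, the saline library rich in choroid plexus, 796 were higher and 749 lower. All 5 ACLP-NT libraries lay above all 4 saline libraries in 204 genes (0.925%) and below them in 294 genes (1.33%). DESeq2, another count model, called 9 genes on the same filter, 6 higher (Gpt2, Klf9, Fam107a, Thap6, Lhx1 and a Tmem181 pseudogene) and 3 lower (Plxdc2, Gcnt1 and Psmb9). No statement below therefore rests on a gene that passed edgeR after adjustment. An unadjusted p is given to rank genes and not as a call. The p-values measure only the spread between these samples.

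Of the 12 higher genes with the smallest unadjusted p, Gpt2 came first. This mitochondrial alanine transaminase that links glutamate and pyruvate, was 68.1, 67.3, 70.6 and 70.4 CPM in saline 18, 19, 32 and 38, and 79.0, 81.8, 80.3, 75.1 and 81.9 CPM in ACLP-NT 17, 27, 49, 53 and 55. The groups did not overlap, and the log2 fold change was 0.20 (SE 0.04, edgeR adjusted p 0.722). DESeq2 gave Gpt2 an adjusted p of 0.0407. Of the other 11 genes on this side, the largest differences were in Alkal2, a ligand of the ALK receptor (log2 fold change 0.79, SE 0.17), in Plekhf1, an endosomal and lysosomal adaptor (0.68, SE 0.17), and in Mc4r, the melanocortin receptor (0.67, SE 0.16). Lefty1, a Nodal antagonist, was 0.55 higher (SE 0.12), and Cbs, which makes cystathionine from homocysteine, was 0.29 higher (SE 0.07). Rasal2, Spns2, a sphingosine 1-phosphate transporter, and Ccdc85a differed by 0.20 to 0.24. Klf9, Gpd1 and Fam107a complete the list and are described with the glucocorticoid targets. Ccdc85a was the only one of the 12 whose groups overlapped.

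The 12 lower genes with the smallest unadjusted p included genes of immune cells and of the lysosome. Psmb9, the inducible immunoproteasome subunit that cuts peptides for MHC class I, was 3.29, 5.24, 4.52 and 3.76 CPM in saline 18, 19, 32 and 38, and 2.94, 1.84, 2.47, 2.69 and 2.02 CPM in ACLP-NT 17, 27, 49, 53 and 55. Every ACLP-NT library lay below every saline library, with a log2 fold change of -0.81 (SE 0.17, edgeR adjusted p 0.722, DESeq2 adjusted p 0.0407). Grn encodes progranulin, a lysosomal glycoprotein made mostly by microglia and neurons. It was 132.7, 134.3, 139.7 and 143.2 CPM in saline and 112.1, 94.6, 127.3, 96.7 and 106.8 CPM in ACLP-NT, in the same order of libraries (log2 fold change -0.36, SE 0.09). The saline values lay close together and all ACLP-NT values lay below them. Plau, the urokinase plasminogen activator, differed by -0.71 (SE 0.16), Sla, an adaptor of antigen receptor signalling, differed by -0.59 (SE 0.14), Etv6, a transcriptional repressor, by -0.30 (SE 0.07) and Plxdc2 by -0.36 (SE 0.08). Gcnt1, an O-glycan branching enzyme, differed by -0.60 (SE 0.13), and its saline library 38 (9.76 CPM) lay apart from the other 3 saline libraries (11.7 to 12.1 CPM). The remaining genes were Asb10 (-1.08), Smpd5 (-1.004), Lrrc3 (-0.45), Pfkfb4, a regulator of glycolysis (-0.34), and Mid1ip1, a regulator of fatty acid synthesis (-0.19). In all 12 the groups did not overlap. Little overlap is likely in both lists of 12, since their genes were picked by the smallest p in these same libraries.

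**Figure D1:**
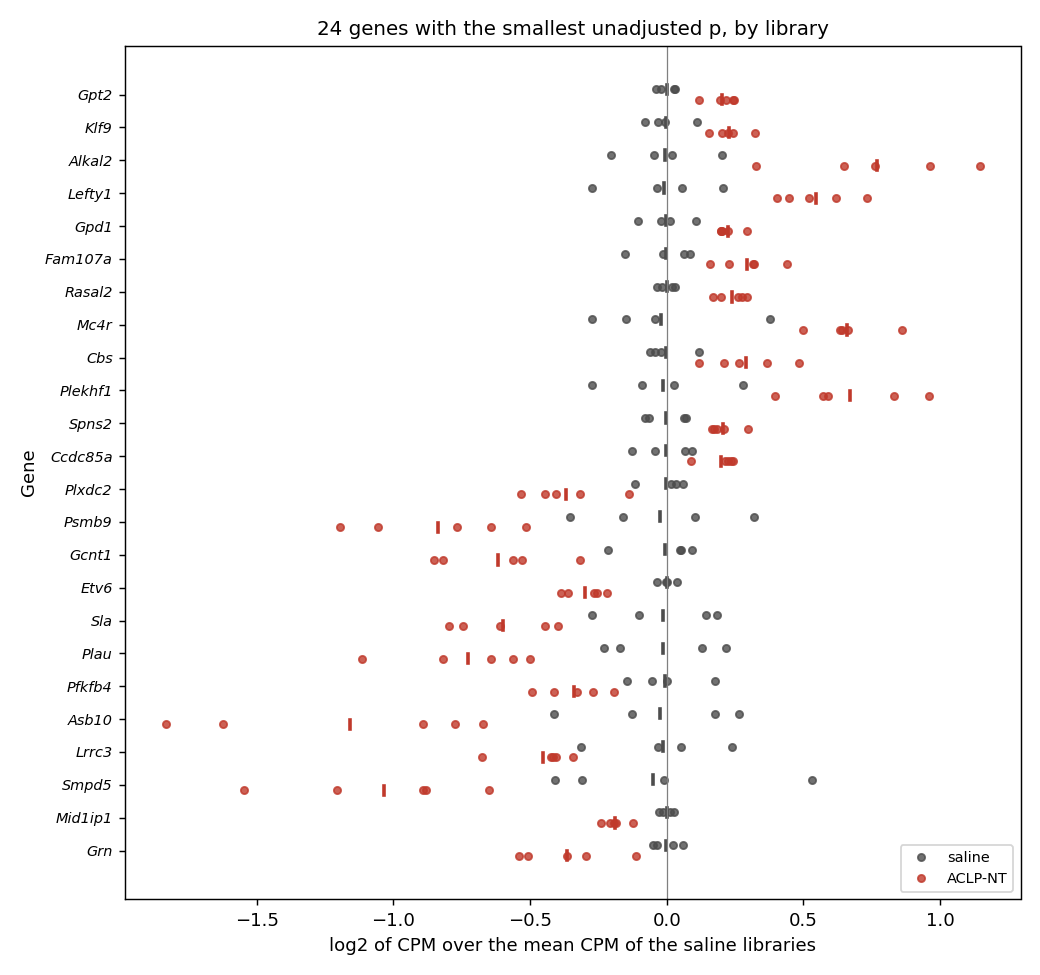
Levels of the 12 higher and 12 lower genes with the smallest unadjusted p. The horizontal axis is the log2 of the CPM over the mean CPM of the saline libraries, each point is 1 library (4 saline in grey, 5 ACLP-NT in red) and short bars are group means. Except for Ccdc85a, the red and grey points of a gene do not overlap, which is likely for genes picked by p in these same libraries.

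Microglial genes were lower in ACLP-NT with few exceptions. Of 17 homeostatic genes, 16 were lower, 10 of them at an unadjusted p below 0.05, with -0.28 as the median log2 fold change, and of 30 disease-associated genes, 29 were lower, 13 at an unadjusted p below 0.05, with a median of -0.32. Over all genes tested the median was -0.0015, 50.6% were lower and 3.43% were lower at an unadjusted p below 0.05. None of the listed genes passed after adjustment. In bulk tissue, fewer microglia and less RNA per microglial cell cannot be told apart.

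Among the homeostatic receptors, Csf1r, the receptor for the survival factors CSF1 and IL-34, was 231, 229, 259 and 247 CPM in saline 18, 19, 32 and 38, and 217, 165, 221, 170 and 213 CPM in ACLP-NT 17, 27, 49, 53 and 55 (log2 fold change -0.29, SE 0.09). Cx3cr1, the fractalkine receptor, was 101.2, 101.7, 115.2 and 112.7 CPM in saline and 94.7, 72.2, 97.3, 74.5 and 97.2 CPM in ACLP-NT (-0.31, SE 0.10). Neither gene had overlapping groups, and in both ACLP-NT 27 and 53 were the lowest. The purinergic receptor P2ry13 also did not overlap (-0.39, SE 0.11), whereas P2ry12 (-0.28, SE 0.08) overlapped through saline 19, at 61.9 CPM below ACLP-NT 17 and 49 at 62.2 and 64.3 CPM. Tmem119 differed by -0.09 (SE 0.08), with saline at 30.2 to 37.4 CPM and ACLP-NT at 28.1 to 34.9 CPM.

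The receptor Trem2 was 84.1, 68.0, 98.9 and 101.8 CPM in saline 18, 19, 32 and 38, and 74.5, 42.9, 77.1, 46.8 and 69.1 CPM in ACLP-NT 17, 27, 49, 53 and 55 (log2 fold change -0.51, SE 0.18, unadjusted p 0.0151, adjusted p 0.765). The groups overlapped through saline 19. Its adaptor Tyrobp differed by -0.39 (SE 0.20) and overlapped widely. Of the disease-associated genes, Clec7a, a pattern receptor that signals through SYK, was 28.3, 26.3, 33.6 and 32.9 CPM in saline and 24.0, 12.3, 25.2, 13.9 and 22.9 CPM in ACLP-NT (-0.62, SE 0.21). Itgax, the integrin CD11c, was 18.6, 17.2, 21.4 and 21.9 CPM in saline and 14.3, 6.86, 16.9, 8.89 and 14.5 CPM in ACLP-NT (-0.68, SE 0.22). Neither of these overlapped, and ACLP-NT 27 and 53 were the lowest libraries in both. Cst7, the cystatin of activated microglia, differed by -0.70 (SE 0.26), and Axl, a receptor for apoptotic cells, by -0.31 (SE 0.08). Apoe, the apolipoprotein that astrocytes also make, differed by -0.17 (SE 0.10), Spp1, which encodes osteopontin, by -0.25 (SE 0.31) and Lgals3, which encodes galectin-3, by 0.09 (SE 0.33).

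Downstream of TREM2, 14 of 16 listed genes were lower, 7 at an unadjusted p below 0.05, against 3.43% of all genes tested. Hcls1, a cytoskeletal adaptor, differed by -0.43 (SE 0.15) and Vav1, a guanine nucleotide exchange factor, by -0.37 (SE 0.13) without overlap. The member with the opposite sign and a low p was Ms4a4a, a membrane protein of the cluster that influences soluble TREM2. Its levels were 0, 0, 0 and 0.057 CPM in saline and 0.45, 0.23, 0.23, 0.075 and 0.23 CPM in ACLP-NT, values near the limit of detection. PU.1, the factor that specifies macrophages, recognises GAGGAAGT. In RefSeq promoters (build GRCm38.p6, from 250 bases before to 50 after each listed start, both strands searched) the letters occurred in 3 of the 13 genes of this list that had a promoter in the table and in 3.69% of 27025 genes. They also occurred in 3 of 13 inflammasome genes, 2 of 8 border-associated macrophage genes, 2 of 12 cathepsins and cystatins and 1 of 6 Fc receptor genes. The same letters were in 1 of 9 complement genes, 1 of 25 disease-associated genes, 0 of 11 homeostatic genes and 0 of 10 microglial transcription factors. The window of Vav1 (chr17:57279049-57279136, plus strand, motif in capitals, 8 bases before the start) shows it, chosen because Vav1 had no overlap between groups:
Vav1: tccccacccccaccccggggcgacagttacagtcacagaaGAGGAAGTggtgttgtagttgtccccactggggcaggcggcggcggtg

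Transcription factors that define microglia were also mostly lower. Of 14, 12 were lower, 7 at an unadjusted p below 0.05, and the groups did not overlap in 4. Over all genes tested 3.43% were lower at that level and 1.33% were lower without overlap. Ikzf1, a zinc finger factor of the lymphoid and myeloid lines, was 12.6, 11.4, 12.3 and 14.1 CPM in saline 18, 19, 32 and 38, and 9.33, 8.24, 10.8, 7.71 and 11.3 CPM in ACLP-NT 17, 27, 49, 53 and 55 (-0.41, SE 0.12). Hhex differed by -0.50 (SE 0.15), Irf8 by -0.41 (SE 0.14) and Tal1 by -0.56 (SE 0.20), each without overlap. Sall1, which maintains microglial identity, differed by -0.23 (SE 0.06) and overlapped through ACLP-NT 49. Irf8 and Tal1 were chosen for naming after their values were seen.

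Complement and Fc receptor genes were mostly lower as well. Of 16 complement genes 14 were lower, 8 at an unadjusted p below 0.05, with a median of -0.33. Among all genes tested, 3.43% were lower at that level and 1.33% were lower without overlap. C3ar1, the receptor for C3a, was 13.3, 13.9, 14.1 and 14.1 CPM in saline and 9.99, 7.16, 11.4, 8.54 and 9.27 CPM in ACLP-NT, in the same order (-0.58, SE 0.18). The saline values were nearly equal, and the ACLP-NT values lay below them and were more spread. C1qb, a chain of the initiating C1q complex, did not overlap either (-0.43, SE 0.14), and C1qa overlapped through saline 19 (-0.39, SE 0.15). C3 itself varied widely within both groups: it ranged from 2.95 to 5.71 CPM in saline and from 1.39 to 7.60 CPM in ACLP-NT (-0.16, SE 0.45). All 6 Fc receptor genes were lower, among them Fcgr3 (-0.37, SE 0.15) and Fcgr2b, the inhibitory receptor (-0.55, SE 0.22). Irf5 (-0.42, SE 0.12) and Tlr6 (-0.48, SE 0.16) of the Toll-like receptor pathway, Il10ra, an interleukin 10 receptor chain (-0.28, SE 0.10), and the TGF-beta receptor Tgfbr2 (-0.41, SE 0.13) also had no overlap, while the ligand Tgfb2 was 0.31 higher (SE 0.13).

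Antigen presentation and interferon genes were lower as well, with a wider spread between libraries. Of 18 genes of MHC class I and the immunoproteasome, 16 were lower, 6 at an unadjusted p below 0.05 (median -0.23). Of 9 MHC class II genes all 9 were lower, 2 of them at an unadjusted p below 0.05 (median -0.57). The share of all genes tested that were lower at that level was 3.43%. Cd74, the invariant chain, was 16.8, 31.3, 20.2 and 23.9 CPM in saline 18, 19, 32 and 38, and 12.9, 7.85, 16.2, 20.8 and 8.26 CPM in ACLP-NT 17, 27, 49, 53 and 55 (-0.80, SE 0.32). Here ACLP-NT 53 was the highest of its group, unlike in the microglial genes above. The median of the class II list was -0.33 without saline 19. Of the class I list, 2 members were at an unadjusted p below 0.05 when saline 19, saline 32, ACLP-NT 27 or ACLP-NT 55 was left out, and 3 when saline 38 or ACLP-NT 53 was. H2-Oa, which tunes peptide loading, differed by -0.80 (SE 0.26), B2m, the light chain of class I, by -0.35 (SE 0.15) and Psmb10, the second immunoproteasome subunit, by -0.21 (SE 0.07).

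Of 42 interferon response genes 41 were lower, but only 6 at an unadjusted p below 0.05, and none was free of overlap. The shares of all genes tested were 3.43% lower at that level and 1.33% lower without overlap. Scores, the mean over a list of centred log2 CPM, were -0.13, 0.38, 0.19 and 0.44 in saline and 0.17, -0.66, 0.46, -0.41 and -0.22 in ACLP-NT. ACLP-NT 49 was thus the highest of the 9 libraries and ACLP-NT 27 the lowest. The number of members at an unadjusted p below 0.05 was 0 when ACLP-NT 27 or saline 19 was left out, 1 when ACLP-NT 53 was, 19 when ACLP-NT 49 was and 2 to 10 when any other library was, and the median of -0.29 was -0.18 without ACLP-NT 27. Gbp2, a guanylate-binding protein, differed by -0.55 (SE 0.24), Gbp5 by -0.46 (SE 0.18), Ifi204, a DNA sensor, by -0.57 (SE 0.23) and Ifit2 by -0.30 (SE 0.13), while Ifit1 differed by -0.11 (SE 0.34). The interferon-stimulated response element, searched as GAAA, any 2 bases and GAAA on both strands, occurred in 19 of 28 promoters of the list and in 3.99% of all. A total of 5 of 16 promoters of the MHC class I list held it. Printed below are Gbp2 (chr3:142620564-142620653, plus strand) as an interferon gene and B2m (chr2:122147508-122147597, plus strand) as a class I gene, with the matches in capitals:
Gbp2: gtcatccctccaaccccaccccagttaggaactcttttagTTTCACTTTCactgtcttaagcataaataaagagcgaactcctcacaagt
B2m: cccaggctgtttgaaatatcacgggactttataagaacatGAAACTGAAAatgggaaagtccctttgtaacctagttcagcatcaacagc

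The microglial differences were carried unevenly. The disease-associated score was 0.09, 0.04, 0.29 and 0.31 in saline 18, 19, 32 and 38, and 0.05, -0.55, 0.15, -0.37 and -0.08 in ACLP-NT 17, 27, 49, 53 and 55. ACLP-NT 17 and 49 lay within the range of saline, and 27 and 53 lay far below it. Without ACLP-NT 27 the median of the list was -0.24 and 8 members were at an unadjusted p below 0.05, and without ACLP-NT 53 they were -0.26 and 9. Of the homeostatic list, 6 members were at an unadjusted p below 0.05 without ACLP-NT 53 and 7 without ACLP-NT 27. Without saline 32 or 38 the members at an unadjusted p below 0.05 were 8 in each case. When the score of the homeostatic list was entered in the model, the median of the disease-associated list was 0.07, that of the cathepsins 0.03, that of the interferon genes 0.24 and that of MHC class II -0.05. That score itself differed between the groups, with a mean of 0.18 in saline and -0.07 in ACLP-NT. Entering it therefore also takes up part of the group difference, and no conclusion is drawn from these medians. Border-associated macrophage markers summed to 30.7 to 46.5 CPM in saline and 32.8 to 43.1 CPM in ACLP-NT, and lymphocyte markers to 3.56 to 4.799 and 2.97 to 4.07 CPM. Their part in the microglial values was not tested.

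**Figure D2:**
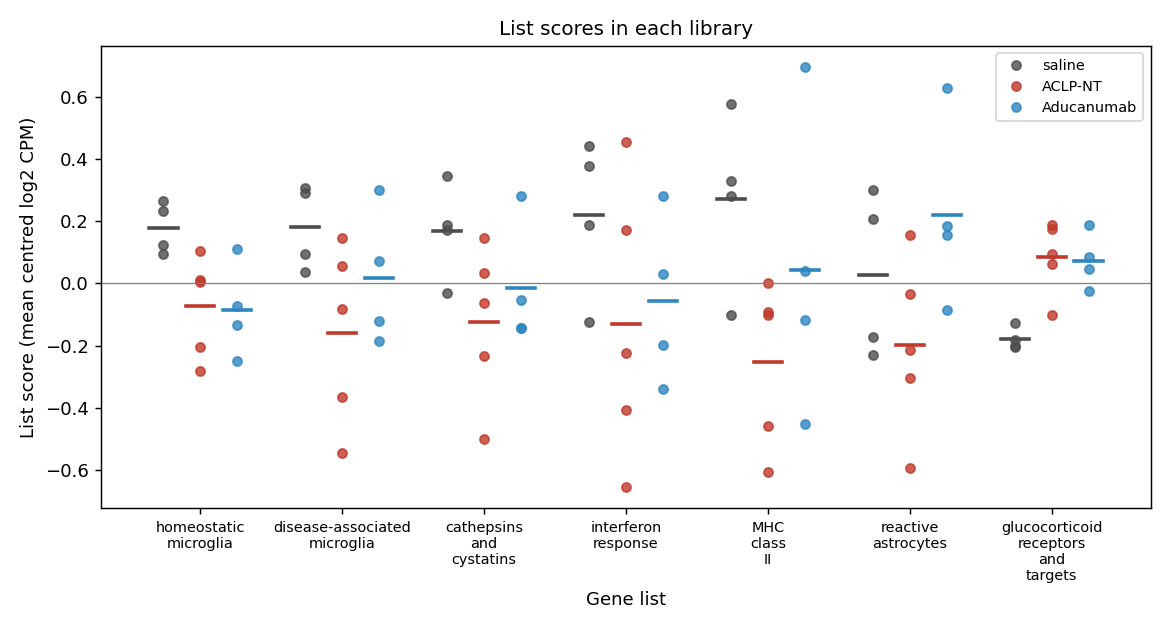
Scores of 7 gene lists in each library, as the mean over list members of log2 CPM minus the mean of the gene over the 13 libraries. Points are libraries (4 saline, 5 ACLP-NT, 4 Aducanumab) and bars are group means. The groups of saline and ACLP-NT overlap in every list shown except the glucocorticoid list, where saline reaches -0.13 and the lowest ACLP-NT library is at -0.10.

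Because the series title names lysosomes, their genes were grouped by role. All 16 cathepsins and cystatins were lower in ACLP-NT, 6 at an unadjusted p below 0.05 (10 without ACLP-NT 49), with a median of -0.23. Of 32 hydrolases 24 were lower, 8 at an unadjusted p below 0.05, but the median was only -0.07. Of 30 membrane and sorting proteins 20 were lower, 4 at an unadjusted p below 0.05 (median -0.04). Among all genes tested, 50.6% were lower, 3.43% were lower at that level and 1.33% were lower without overlap. The medians of the 20 subunits of the vacuolar ATPase (-0.02), of 30 genes of the response to lysosomal damage (-0.01) and of 33 autophagy genes and TFEB relatives (-0.01) lay within 0.02 of the median over all genes.

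Among the proteases, Ctsb, a cysteine cathepsin, was 757, 672, 756 and 800 CPM in saline 18, 19, 32 and 38, and 676, 548, 718, 615 and 627 CPM in ACLP-NT 17, 27, 49, 53 and 55 (-0.23, SE 0.07). ACLP-NT 17 and 49 lay above the lowest saline library. Ctsd, the main aspartic protease of the lysosome, was 1209, 1038, 1403 and 1492 CPM in saline and 1166, 747, 1284, 890 and 1042 CPM in ACLP-NT (-0.33, SE 0.16), with overlap. Ctss, which trims the invariant chain in microglia, differed by -0.45 (SE 0.16), and Lgmn, the asparagine endopeptidase, by -0.24 (SE 0.08). Of the glycosidases, Man2b1 differed by -0.28 (SE 0.10), Naglu by -0.32 (SE 0.11) and Hexa by -0.34 (SE 0.12). None of the 32 hydrolases was free of overlap.

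Of the membrane and sorting proteins, 3 were lower without overlap, among them Grn and Laptm5, a lysosomal protein of immune cells (-0.38, SE 0.13). Mcoln1, the lysosomal calcium channel, differed by -0.12 (SE 0.05), while Lamp1, the general lysosomal membrane protein, differed by -0.12 (SE 0.07). In the vacuolar ATPase, Tcirg1, a subunit of macrophages and osteoclasts, differed by -0.27 (SE 0.11), Atp6v0b by 0.09 (SE 0.04) and Atp6v0d1 by 0.03 (SE 0.05). Of the damage response, 2 of 30 genes had an unadjusted p below 0.05 (6.67%), near the 5.88% of all genes tested. They were Lgals9, a galectin that binds exposed glycans on damaged lysosomes and also an interferon target (-0.32, SE 0.11), and Osbpl10, a lipid transfer protein (-0.37, SE 0.13). Tfeb was 9.94, 10.4, 10.6 and 12.3 CPM in saline and 9.05, 9.55, 11.8, 10.6 and 10.2 CPM in ACLP-NT (-0.08, SE 0.12). None of the 33 autophagy and TFEB genes had an unadjusted p below 0.05, although Atg5 (-0.13, SE 0.06) and Atg13 (0.06, SE 0.04) were free of overlap, in opposite directions.

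The CLEAR core TCACGTGA, which reads the same on both strands, occurred in 1.12% of all promoters searched. It was present in 3 of 14 vacuolar ATPase genes, 4 of 25 membrane and sorting genes, 2 of 12 cathepsins and cystatins and 1 of 24 hydrolases that had a promoter in the table. The windows below place a protease, a channel and a pump subunit side by side, since they share the core and differ in their log2 fold changes (Ctsd -0.33, Mcoln1 -0.12, Atp6v0d1 0.03). They lie at chr7:142387879-142387966 (minus strand), chr8:3500433-3500520 (plus strand) and chr8:105566021-105566108 (minus strand). The last one is the promoter of Ctss (chr3:95526725-95526814, plus strand), which has no CLEAR core and in which both the interferon-stimulated element and, in reverse, the PU.1 motif are in capitals:
Ctsd: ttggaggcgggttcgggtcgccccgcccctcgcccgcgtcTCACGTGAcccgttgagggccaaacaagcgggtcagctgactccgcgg
Mcoln1: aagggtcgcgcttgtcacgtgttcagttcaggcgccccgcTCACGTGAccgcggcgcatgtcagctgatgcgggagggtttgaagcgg
Atp6v0d1: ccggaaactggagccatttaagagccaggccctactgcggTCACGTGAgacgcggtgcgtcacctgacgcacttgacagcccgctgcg
Ctss: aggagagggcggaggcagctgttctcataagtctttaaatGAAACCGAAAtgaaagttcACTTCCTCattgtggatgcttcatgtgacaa

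**Figure D3:**
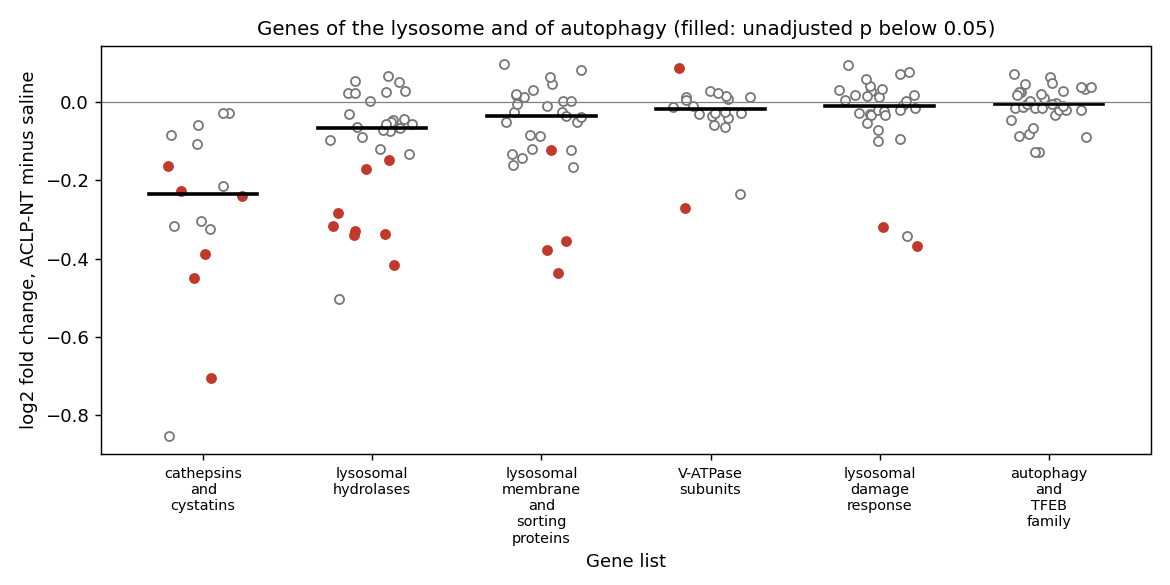
Log2 fold changes (ACLP-NT minus saline, vertical axis) of all tested genes in 6 lists of the lysosome and of autophagy. Each point is a gene, filled where the unadjusted p was below 0.05, and black bars are list medians, which run from -0.23 for cathepsins and cystatins to -0.01 for autophagy and TFEB genes.

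Glucocorticoid receptors and targets were mostly higher in ACLP-NT. Of 25 genes 23 were higher, 13 of them at an unadjusted p below 0.05 and none lower at that level. In 6 the groups did not overlap, and the median log2 fold change was 0.23. Among all genes tested, 2.46% were higher at that level and 0.925% were higher without overlap. None of the 25 passed after adjustment in edgeR. Of the 22 members that are not among the top 24 genes, 20 were higher, 10 at an unadjusted p below 0.05, with a median of 0.22. These 22 were also chosen with earlier results of these data known, so their count is no separate support. The score of the list was -0.18, -0.20, -0.20 and -0.13 in saline 18, 19, 32 and 38, and 0.06, 0.09, 0.18, 0.19 and -0.10 in ACLP-NT 17, 27, 49, 53 and 55. ACLP-NT 55 lay just above saline and the other 4 well above it.

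Of the receptors, Nr3c1, the glucocorticoid receptor, differed by -0.08 (SE 0.06) and Nr3c2, the mineralocorticoid receptor, by 0.18 (SE 0.10). Among the targets, Klf9, a zinc finger factor induced by glucocorticoids and thyroid hormone, was 168.6, 147.7, 155.4 and 152.5 CPM in saline and 184.7, 179.4, 182.3, 195.3 and 173.7 CPM in ACLP-NT (0.23, SE 0.05, DESeq2 adjusted p 0.0407). Fkbp5, the chaperone that feeds back on the receptor, was 54.3, 49.3, 57.3 and 50.3 CPM in saline and 61.8, 59.7, 63.6, 58.3 and 62.4 CPM in ACLP-NT (0.21, SE 0.07). Both genes were without overlap, by a small margin in each.

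Sgk1, a serum and glucocorticoid regulated kinase, was 76.1, 66.9, 81.5 and 104.0 CPM in saline and 120.5, 111.9, 152.8, 185.5 and 95.1 CPM in ACLP-NT (0.70, SE 0.19). Only ACLP-NT 55 lay within the saline range. Hif3a (0.78, SE 0.20), a hypoxia-inducible factor, also overlapped through ACLP-NT 55, which was at 4.47 CPM with saline between 3.03 and 4.67 CPM and the other 4 ACLP-NT libraries between 6.01 and 8.73 CPM. Ddit4, an inhibitor of mTORC1 signalling, was 43.3, 34.3, 47.4 and 44.7 CPM in saline and 51.3, 53.0, 54.1, 60.6 and 48.5 CPM in ACLP-NT (0.33, SE 0.09), without overlap.

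Fam107a, an actin-associated protein of astrocytes and neurons, was 324, 382, 376 and 357 CPM in saline and 421, 450, 448, 488 and 402 CPM in ACLP-NT (0.30, SE 0.07, DESeq2 adjusted p 0.0493). Gpd1, the cytosolic glycerol phosphate dehydrogenase of oligodendrocytes, was 103.1, 94.9, 109.9 and 100.6 CPM in saline and 117.2, 117.4, 117.1, 125.3 and 119.2 CPM in ACLP-NT (0.22, SE 0.05). Zbtb16 was also free of overlap (0.23, SE 0.07). Tsc22d3, which encodes the anti-inflammatory protein GILZ, differed by 0.34 (SE 0.12), Klf15 by 0.32 (SE 0.11), Arrdc2 by 0.28 (SE 0.11), Errfi1, an inhibitor of the EGF receptor, by 0.25 (SE 0.08) and Per1 by 0.18 (SE 0.06), each with overlap. The metallothionein genes differed by -0.02 (Mt1, SE 0.06) and 0.11 (Mt2, SE 0.09). Genes of the list that are not named in this paragraph or the preceding ones are shown in the plot of the glucocorticoid list.

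**Figure D4:**
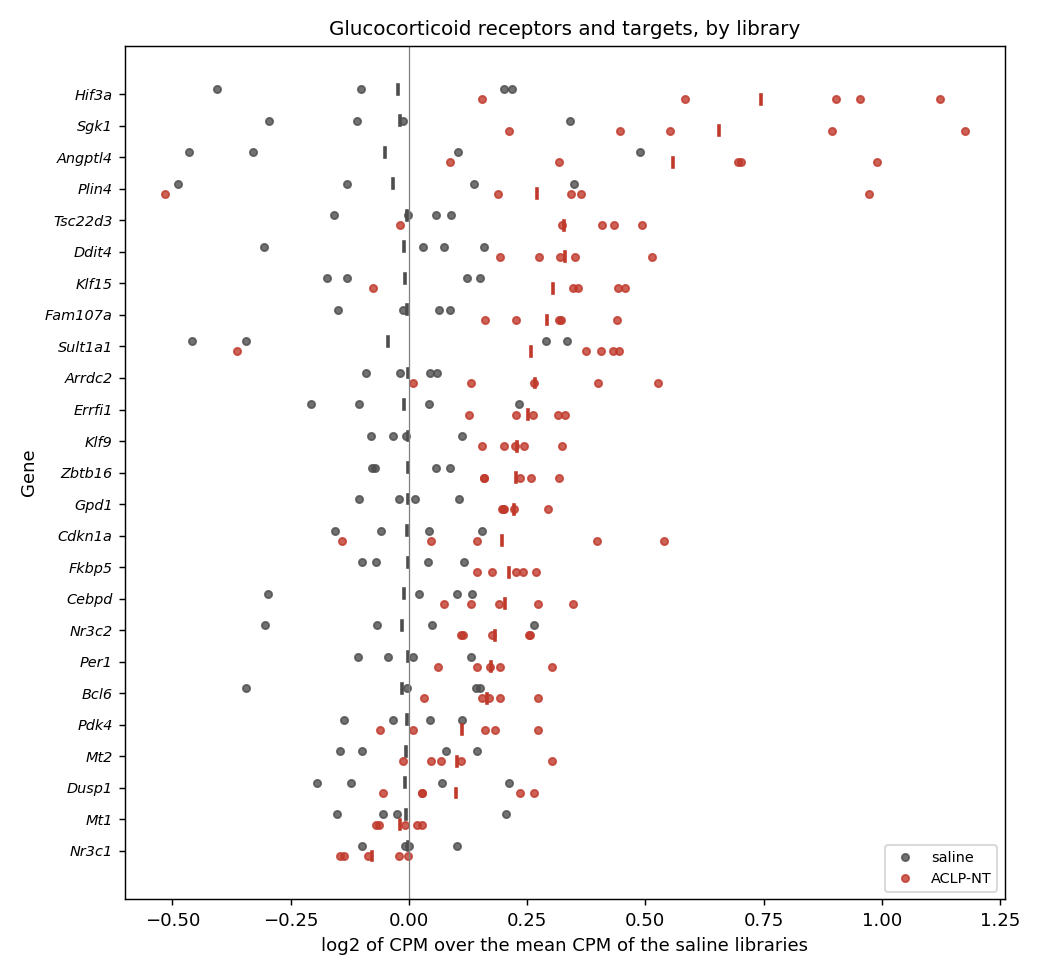
The 25 genes of the glucocorticoid list, ordered by log2 fold change. The horizontal axis is the log2 of the CPM over the mean CPM of the saline libraries, points are libraries (4 saline in grey, 5 ACLP-NT in red) and short bars are group means. The red bar lies to the right of the grey one in all genes but Mt1 and Nr3c1.

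The glucocorticoid response element, searched on both strands as GNACA, any 3 bases and TGTNC, was found in 3 of the 20 genes of the list that had a promoter in the table and in 0.537% of all. A gene with several listed starts counted once. The element was also in 2 of 21 promoters of the reactive astrocyte list, Slc10a6 and Serpina3n, of which the latter was lower (-0.31). In the inflammasome list it was in 1 of 13. The matches in the glucocorticoid list lie at chr10:21993662-21993754 (Sgk1, plus strand), chr14:8309845-8309937 (Fam107a, minus strand) and chr8:94178955-94179047 (Mt1, plus strand), and the windows are shown because Sgk1 and Fam107a were higher and Mt1 was not:
Sgk1: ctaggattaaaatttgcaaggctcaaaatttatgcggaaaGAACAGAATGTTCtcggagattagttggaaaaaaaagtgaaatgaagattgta
Fam107a: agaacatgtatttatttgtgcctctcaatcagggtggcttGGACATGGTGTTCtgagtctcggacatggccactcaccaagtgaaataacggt
Mt1: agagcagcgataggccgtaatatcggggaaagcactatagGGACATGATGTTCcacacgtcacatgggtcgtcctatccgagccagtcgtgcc

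The median of the glucocorticoid list lay between 0.20 and 0.25 with each of the 9 libraries left out in turn, with 12 to 16 members at an unadjusted p below 0.05. It was 0.23 with the neocortex score, 0.21 with the choroid plexus score and 0.29 with the homeostatic microglia score in the model. The libraries with the lowest and the highest choroid plexus level in ACLP-NT (55 and 53) were also those with the lowest and the highest glucocorticoid score. Because Per1 belongs to the circadian clock, a clock list was added after the values were seen. Its 16 genes had a median of -0.02. Per2 was 42.5, 45.4, 43.5 and 47.9 CPM in saline and 52.2, 58.4, 49.4, 48.8 and 53.0 CPM in ACLP-NT (0.22, SE 0.06), without overlap, and Per3 differed by 0.18 (SE 0.08). The labels used here do not state the hour of tissue collection, and its part in these values was not tested.

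Most astrocyte genes were lower. Of 24 reactive genes 19 were lower, 6 at an unadjusted p below 0.05 (median -0.27), and no member was free of overlap. Of 18 homeostatic astrocyte genes 16 were lower, 2 at an unadjusted p below 0.05 and 2 without overlap (median -0.04, 10 lower without saline 19). The shares of all genes tested were 3.43% lower at that level and 1.33% lower without overlap. Gfap, the intermediate filament of reactive astrocytes, was 1517, 1109, 1794 and 1553 CPM in saline 18, 19, 32 and 38, and 1292, 769, 1307, 923 and 1251 CPM in ACLP-NT 17, 27, 49, 53 and 55 (-0.43, SE 0.16). The overlap came from saline 19, and ACLP-NT 27 and 53 were again the lowest. C4b, a complement component made by astrocytes and oligodendrocytes, differed by -0.55 (SE 0.20), Ggta1, a glycosyltransferase, by -0.57 (SE 0.17), Osmr, the oncostatin M receptor, by -0.51 (SE 0.19) and Serpina3n, a protease inhibitor, by -0.31 (SE 0.17). S100b (-0.22, SE 0.08) and Atp1b2 (-0.14, SE 0.05), both from the homeostatic astrocyte list, were without overlap. Aqp4, the water channel, differed by -0.23 (SE 0.12). Without saline 32, 2 reactive genes were lower at an unadjusted p below 0.05, without ACLP-NT 53 there were 3, and with the homeostatic microglia score in the model the median of the reactive list was 0.16.

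Neuronal genes showed small differences. App, measured together with any transgene reads that align to it, was 1361, 1178, 1222 and 1213 CPM in saline and 1209, 1263, 1299, 1282 and 1259 CPM in ACLP-NT (0.02, SE 0.05), and Bace1, the beta secretase, differed by -0.03 (SE 0.05). None of the 17 genes of the APP family and secretases had an unadjusted p below 0.05. Snap25, a presynaptic protein, differed by 0.05 (SE 0.09). Of 23 immediate early genes 16 were higher, 4 at an unadjusted p below 0.05, against 2.46% of all genes tested. They were Bdnf (0.38, SE 0.12), Egr4 (0.22, SE 0.08), Arc (0.22, SE 0.09) and Gadd45b (0.25, SE 0.11). The members at that level were 2 without saline 18, saline 19, ACLP-NT 17, ACLP-NT 27 or ACLP-NT 53 and 6 without saline 32, and the median was 0.07 without saline 19. Fos was instead lower without overlap, at 9.52, 9.39, 12.2 and 12.1 CPM in saline and 8.18, 9.35, 9.37, 8.95 and 8.41 CPM in ACLP-NT (-0.29, SE 0.10). With the neocortex score in the model the median of this list was 0.01 in place of 0.11, and 1 member was higher at an unadjusted p below 0.05. Of the postsynaptic genes, Grin2a, an NMDA receptor subunit, differed by 0.23 (SE 0.09) and Dlg1 by -0.17 (SE 0.05). Of the 22 presynaptic genes, which had a median of -0.03, Stx1a differed by -0.32 (SE 0.15).

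All 8 dentate granule cell markers were higher, 5 at an unadjusted p below 0.05, with a median of 0.21. Of the 12 CA field markers 10 were higher (median 0.16), 0 of them at that level. The CA field score reached -0.04 in saline and was at least 0.04 in ACLP-NT. Among all genes tested, 2.46% were higher and 3.43% were lower at an unadjusted p below 0.05. Prox1, the factor that maintains granule cell identity, was 101.6, 89.6, 122.3 and 110.4 CPM in saline and 118.9, 109.3, 110.4, 141.8 and 136.2 CPM in ACLP-NT (0.22, SE 0.09), with overlap. Dock10 was without overlap (0.17, SE 0.06), and Tdo2 (0.49, SE 0.16), Trpc6 (0.20, SE 0.09) and Dsp (0.44, SE 0.19) overlapped. All 12 neocortex markers were lower (median -0.40), among them Tbr1 (-0.27, SE 0.12) and Nxph4 (-0.93, SE 0.38), as were all 6 subiculum markers (median -0.49). The subiculum median moved to -0.22 when saline 18 was left out, to -0.32 when ACLP-NT 53 was, and to 0.23 with the neocortex score in the model, when all 6 were higher. Of the neocortex markers, 2 were at an unadjusted p below 0.05, a number that ran from 0 (without saline 18, ACLP-NT 17 or ACLP-NT 53) to 7 (without saline 32, when the median was -0.60). The neocortex scores were 0.64, 0.65, -0.28 and 0.32 in saline and -0.20, 0.29, 0.02, -0.38 and -0.21 in ACLP-NT. With that score in the model the dentate median was 0.11 and no dentate marker had an unadjusted p below 0.05. The CA field median was then 0.09. The dentate markers at an unadjusted p below 0.05 were 2 without saline 18, ACLP-NT 53 or ACLP-NT 55 and 3 without saline 19. With the subiculum score in the model the dentate median was 0.16 with 2 markers at an unadjusted p below 0.05, and with the choroid plexus score it was 0.23 with 4. Choroid plexus markers were higher in all 20 (median 0.75, between 0.40 and 1.02 with any other single library left out and 2.90 without saline 38, when 18 were at an unadjusted p below 0.05).

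Among genes of newborn neurons, Igfbpl1 was 0.86, 1.44, 0.88 and 1.29 CPM in saline and 1.65, 2.36, 5.15, 1.57 and 2.39 CPM in ACLP-NT (1.23, SE 0.43), without overlap. Eomes, a factor of intermediate progenitors, lay at 0.05 to 0.18 CPM in saline and at 0.15 to 0.39 CPM in 4 ACLP-NT libraries, with ACLP-NT 49 at 5.59 CPM. Draxin differed by 1.005 (SE 0.39) at levels of 0.15 to 1.14 CPM, and the stem cell factor Sox2 by -0.14 (SE 0.06), without overlap. The whole list of 13 genes had a median of 0.06. Of 22 cholesterol synthesis genes 21 were lower (median -0.11), 3 of them at an unadjusted p below 0.05 (0 to 4 with each library left out in turn). Among all genes tested, 3.43% were lower at that level. The 3 included Fdps (-0.23, SE 0.10) and Mvd (-0.26, SE 0.11). Cyp46a1, the neuronal enzyme that clears cholesterol, differed by -0.19 (SE 0.09). Heat shock and unfolded protein response genes were higher in 24 of 29 (median 0.07), but only 2 were at an unadjusted p below 0.05, where 5.88% of all genes tested were so in either direction. The median was 0.02 without ACLP-NT 49 and 0.04 without saline 19, and 9 members were at that level without saline 38. The 2 members were Calr (0.21, SE 0.08) and Hsph1 (0.13, SE 0.05). The 80 cytosolic ribosomal protein genes tested had a median of -0.05, led by Rps12 (-0.26, SE 0.07), and the 60 nuclear genes of the respiratory chain one of 0.02. Gsr, the glutathione reductase, was without overlap (-0.16, SE 0.06), as was Cldn5, the tight junction protein of endothelium (-0.26, SE 0.09). Of the 15 endothelial markers, however, 8 were higher (median 0.02), and 1 was at an unadjusted p below 0.05 (6.67%). Of the 20 NRF2 and antioxidant genes, the list that holds Gsr, 12 were lower (median -0.03).

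**Figure D5:**
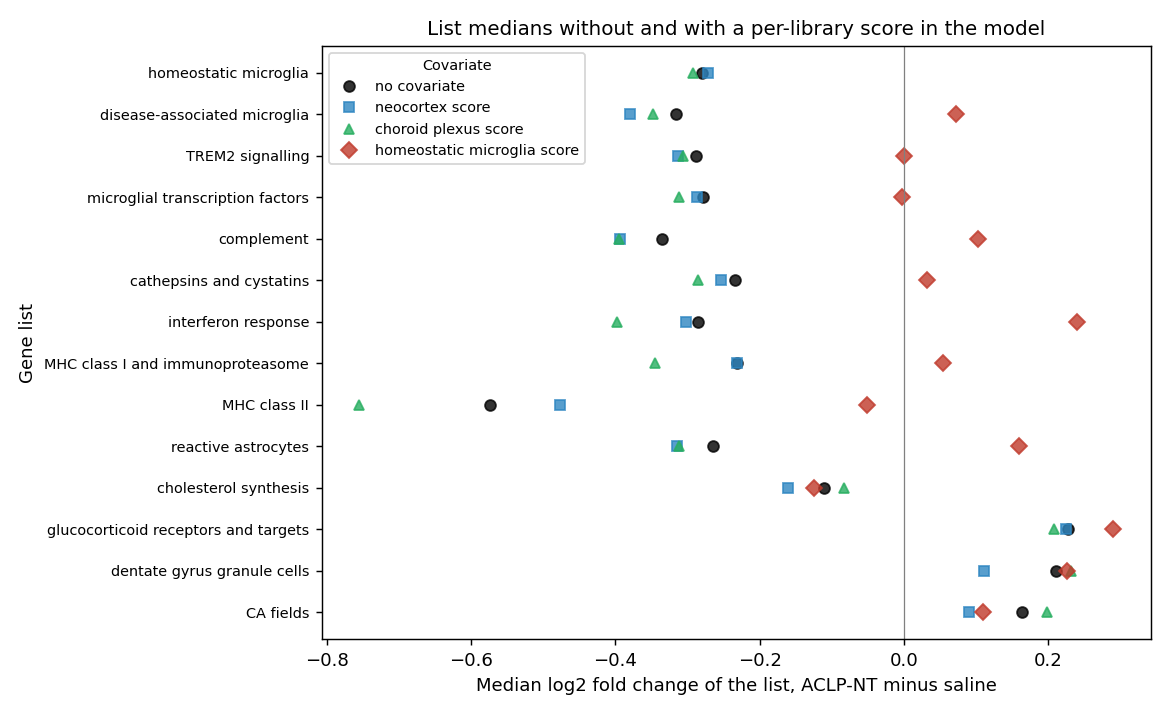
Median log2 fold change (ACLP-NT minus saline, horizontal axis) of 14 gene lists without a covariate and with the neocortex, choroid plexus or homeostatic microglia score of each library in the edgeR model. The homeostatic list itself is not shown against its own score. The disease-associated median is -0.32 without a covariate, -0.38 with the neocortex score and 0.07 with the microglial score. The glucocorticoid median is between 0.21 and 0.29. The microglial score itself differs between saline and ACLP-NT, so the medians fitted with it are a description only.

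ACLP-NT was also compared directly with Aducanumab. No gene passed in ACLP-NT against Aducanumab in edgeR (0% of those tested, smallest adjusted p 1), and DESeq2 called 3. A total of 716 genes had an unadjusted p below 0.05, fewer than the 1103 that make up 5% of the genes tested. Each treated group against saline shares the same 4 saline libraries, so the values are given side by side only. The homeostatic median was -0.28 in ACLP-NT and -0.28 in Aducanumab, the disease-associated median -0.32 and -0.19, the reactive astrocyte median -0.27 and 0.18, the MHC class II median -0.57 and -0.16, and the glucocorticoid median 0.23 and 0.22. Between the treated groups, the median of the reactive astrocyte list was -0.31, of MHC class II -0.28, of the disease-associated list -0.12 and of the glucocorticoid list 0.04. In Aducanumab 24, 50, 56 and 58 the reactive astrocyte scores were 0.19, -0.08, 0.16 and 0.63. The MHC class II scores were 0.04, -0.45, -0.12 and 0.70 in the same order. Aducanumab 58 was thus the highest of its group in both lists, and its part in these medians was not tested. Meningeal fibroblast markers summed to 106 to 404 CPM in ACLP-NT and 264 to 742 CPM in Aducanumab, again with Aducanumab 58 the highest. The part of these markers in the astrocyte and MHC class II values was not tested.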

How the data were processed

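Libraries of 13 hippocampal samples were prepared with oligo(dT) beads, per the labels' protocols, and 9 libraries enter the comparison of ACLP-NT with saline. The tools listed in the submitters' processing notes are HISAT2 2.0.4, cutadapt 1.9, edgeR (no version) and StringTie 1.3.4d. Build and counting program: not given in the sources used here. Per the file headers, the authors deposited raw counts and FPKM for 36287 genes, the latter scaled to gene length and library total.

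Counts were filtered with filterByExpr (22065 genes), scaled by TMM and tested with the edgeR 4.0.16 quasi-likelihood test (two-sided), with all 13 libraries and 3 groups in 1 fit, Benjamini-Hochberg adjusted over all genes tested, threshold 0.05. Levels are CPM after TMM. Each SE was taken as the size of the log2 fold change over the root of its F statistic. Groups do not overlap where every ACLP-NT library lies on the same side of every saline library. DESeq2 1.42.0 and limma 3.58.1 on log2(FPKM + 1) were alternatives, as were other filters and scalings, each library left out and scores of other tissue as covariates. The common biological coefficient of variation was 0.226. Mean counts were under 100 in 31.8% of genes tested. Replicates always differed by more than counting error, with a chi-square of 13.9 or more for each degree of freedom.

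The members and the 55 gene lists were chosen with earlier results of these data known, and no list was tested. Some lists share members, among them Sall1, Itgax, Ctsb and Axl, so their counts are not separate from each other. Named genes are the 12 higher and 12 lower genes with the smallest unadjusted p and a mean of at least 1 CPM (predicted genes and pseudogenes left out), a panel of 31 genes, and the 3 members of each list with the smallest p. Some genes that this rule picks are not reported here. Further list members were named after their values were seen: Irf8, Tal1, C1qb, Gbp2, Ifit1, Atp6v0d1, Arc, Gadd45b, Dsp, Sox2 and the glucocorticoid genes other than Klf9, Gpd1 and Fam107a. The method was tested on simulated data. Promoter sequences are from RefSeq (GRCm38.p6) and were matched by symbol.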

Additional observations from a re-analysis of the deposited data

Results flagged for a closer look

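Within the saline and the ACLP-NT group, the highest or the lowest library of 55 list scores and of the genes of the top list and the panel was compared with the others by Dixon's gap criterion. It was met in 10 of 216 cases (4.63%), close to the share of 1 in 20 that chance gives. Gcnt1 was 9.76 CPM in saline 38 against 11.7 to 12.1 CPM in the other saline libraries. Gpd1 was 125.3 CPM in ACLP-NT 53 against 117.1 to 119.2 CPM in the other 4, and Lrrc3 was 7.62 CPM in ACLP-NT 53 against 9.08 to 9.59 CPM. Ccdc85a was 99.8 CPM in ACLP-NT 49 against 108.9 to 111.0 CPM. The circadian clock score was -0.10 in saline 32 against 0.06 to 0.07 in the other saline libraries. ACLP-NT 49 stood above its group in the autophagy and TFEB score (0.0443 against -0.02 to -0.0049) and in the inflammasome score (0.29 against -0.30 to -0.16). ACLP-NT 55 stood below its group in the scores of pericytes and smooth muscle (-0.40 against -0.08 to -0.02) and of border-associated macrophages (-0.66 against 0.01 to 0.25). The nuclear respiratory chain score was 0.0639 in ACLP-NT 17 against -0.0073 to 0.0093.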

How the results depend on the processing

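No paired analysis was possible because the groups share no replicate numbers. The number of genes at an unadjusted p below 0.05 was 1298 as reported, 1989 without a low-count filter and 582 among genes with a mean FPKM of at least 5, and the number whose groups did not overlap was 498, 568 and 183. With each library left out in turn, the latter ranged from 706 to 1201. Leaving out a library makes non-overlap easier to reach by construction. No gene passed edgeR in any of the alternatives other than leaving out saline 32 (1 gene, Nav2), so that the range over left-out libraries was 0 to 1, and DESeq2 called 9. In ACLP-NT against Aducanumab DESeq2 called 3 genes, and edgeR 0 to 1 over left-out libraries (1 without ACLP-NT 49). The subiculum score was added as a covariate, and the clock list as a list, after seeing the data.

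Of the named genes, 38 values over all alternatives had the opposite sign. The cause was not tested. With the homeostatic microglia score as a covariate, the log2 fold change was 0.12 for Tyrobp, 0.00495 for Cst7, 0.0769 for Apoe, 0.176 for Spp1, 0.0954 for Tmem119, 0.0503 for C1qa, 0.744 for C3, 0.0677 for B2m, 0.128 for Ctsd, 0.024 for Lamp1, 0.0885 for Tfeb, 0.0123 for Serpina3n, 0.0127 for Aqp4, -0.0203 for App, -0.0502 for Snap25, 0.00926 for Fcgr3, 0.0257 for Fcgr2b, 0.0129 for Ctss, 0.0185 for Tcirg1, -0.0552 for Atp6v0d1, 0.646 for Ifit1 and 0.0544 for Mt1. With the neocortex score it was 0.056 for Spp1, -0.0162 for Lgals3 and -0.002028 for Snap25, and with the choroid plexus score -0.179 for Lgals3 and 9.07e-05 for Bace1. In limma on log2(FPKM + 0.1), Lgals3 was -0.013. With each library left out in turn, the log2 fold change ran for App from -0.002331 to 0.06776 (sign changed without saline 19), for Atp6v0d1 from -0.009521 to 0.07857 (sign changed without saline 38), for Bace1 from -0.04893 to 0.004224 (sign changed without saline 18), for C3 from -0.521 to 0.05695 (sign changed without ACLP-NT 17 or ACLP-NT 27), for Ifit1 from -0.3606 to 0.02922 (sign changed without saline 38 or ACLP-NT 27 or ACLP-NT 53), for Lgals3 from -0.113 to 0.2936 (sign changed without ACLP-NT 49) and for Mt1 from -0.06518 to 0.06003 (sign changed without saline 32). Genes with low mean counts are those where depth limits the precision.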
